A study of Mus musculus with 6 samples.

Results

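The BCL2 family genes described here are the 10 rows of the expression table whose symbol is Bcl2, Bcl2l1, Mcl1 or Bcl2a1b, which encode proteins that keep cells alive, or Bcl2l11, Bax, Bak1, Bid, Bbc3 or Pmaip1, which encode proteins that promote death. They were chosen by name, all 10 were found among the 21965 genes of the table, and all 10 passed the filter of at least 1 FPKM in at least 3 libraries. FPKM is the number of sequenced fragments scaled by the length of the gene and the mapped fragments of the library. Comparison between genes is rough, since it rests on the lengths used and on the assignment of fragments to genes. RNA was sequenced from mouse samples labelled lung tissue, in 3 Aa-flox and 3 Aa-cko libraries, as the labels call them. The labels used here do not expand Aa and name no deleted gene, Cre driver, strain, age, sex or treatment. Lkb1 (gene symbol Stk11) stands in the title of the series beside innate lymphoid cells of group 2, and the contrast addresses what changes in expression with the deletion that cko stands for. Stk11 itself read 51.8 to 64.1 FPKM in Aa-flox and 53.7 to 62.7 in Aa-cko (log2 0.05 ± 0.11, SE, adjusted p = 0.721), and whole-gene FPKM does not show the loss of single exons or of the gene in a minority of cells. Every direction below therefore rests on the library labels. Whether replicates came from different animals is not stated in the labels, so the p-values describe spread between libraries that may be technical only.

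The BCL2 family controls the mitochondrial route to apoptosis. The effectors BAX and BAK form pores in the outer mitochondrial membrane and release cytochrome c, and the survival proteins BCL-2, BCL-XL, MCL-1 and A1 hold them, and the BH3-only proteins that activate them, in check. The BH3-only proteins BIM (Bcl2l11), BID (Bid), PUMA (Bbc3) and NOXA (Pmaip1) carry a short helix, the BH3 domain, that docks into a groove of the survival proteins. In lymphocytes BIM and BCL-2 set the lifespan of resting cells, MCL-1 is needed by most leukocytes, and A1 is induced by antigen receptor and NF-kappaB signals.

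A codon pattern of the BH3 domain was sought in the coding sequences of both classes, and the matching stretches are shown here. The docking described above is that of the BH3-only proteins, so a match in a survival gene is not to be read as a docking helix. A search of the longest matching coding transcript of each member in GENCODE mouse release M21 for a leucine codon, any 3 codons, a glycine or alanine codon, an aspartate codon and then a codon for aspartate, glutamate, glycine or lysine gave 1 match in 8 members, 2 in Pmaip1 and 0 in Bcl2a1b. The absence of a match in Bcl2a1b says only that these codons were not found. The 36 bases around the match are given 5′ to 3′ on the coding strand, with the 6 codons from leucine to aspartate in capitals and 3 codons on each side in lower case, and none is given for Pmaip1.
Bcl2: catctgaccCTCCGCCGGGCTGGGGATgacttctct
Bcl2l1: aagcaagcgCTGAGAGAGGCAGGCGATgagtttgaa
Mcl1: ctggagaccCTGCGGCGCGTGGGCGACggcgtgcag
Bcl2l11: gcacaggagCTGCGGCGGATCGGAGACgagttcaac
Bax: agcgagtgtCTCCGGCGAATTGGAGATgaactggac
Bak1: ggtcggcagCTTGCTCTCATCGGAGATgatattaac
Bid: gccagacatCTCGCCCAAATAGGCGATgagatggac
Bbc3: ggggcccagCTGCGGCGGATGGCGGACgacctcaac
On mm10 the stretches lie at chr1:106712575-106712610 in exon 1 of Bcl2, chr2:152829697-152829732 in exon 2 of Bcl2l1, chr3:95659427-95659462 in exon 1 of Mcl1 and chr2:128147141-128147176 in exon 3 of Bcl2l11. The others lie at chr7:45465997-45466032 in exon 3 of Bax, chr17:27022531-27022566 in exon 4 of Bak1, chr6:120897289-120897324 in exon 4 of Bid and chr7:16313764-16313799 in exon 3 of Bbc3. Strands are plus for Mcl1, Bcl2l11 and Bbc3 and minus for the other five. All of these are protein-coding bases, each within a single exon.

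Of the 10 genes, 4 differed between the groups. The survival gene Bcl2 and the death gene Bcl2l11 were lower in the Aa-cko libraries, and the death genes Pmaip1 and Bax were higher. Among the 4 survival genes 1 was lower, 0 were higher and 3 did not pass, and among the 6 death genes 2 were higher, 1 was lower and 3 did not pass. The test was limma on log2(FPKM + 1) with Benjamini-Hochberg adjustment over all 10849 tested genes at 0.05, by which 42.4% of all tested genes were called, 19.2% as higher and 23.2% as lower, so 4 of 10 is close to the share of all genes. The median log2 fold change, Aa-cko minus Aa-flox, was -0.07 for the survival genes and 0.28 for the death genes, beside -0.05 for all tested genes. The groups did not overlap for 6 of the 10 genes, beside 53.3% of all tested genes. These counts and medians are a description of 10 chosen genes, and the difference between the classes was not tested.

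**Figure D1:**
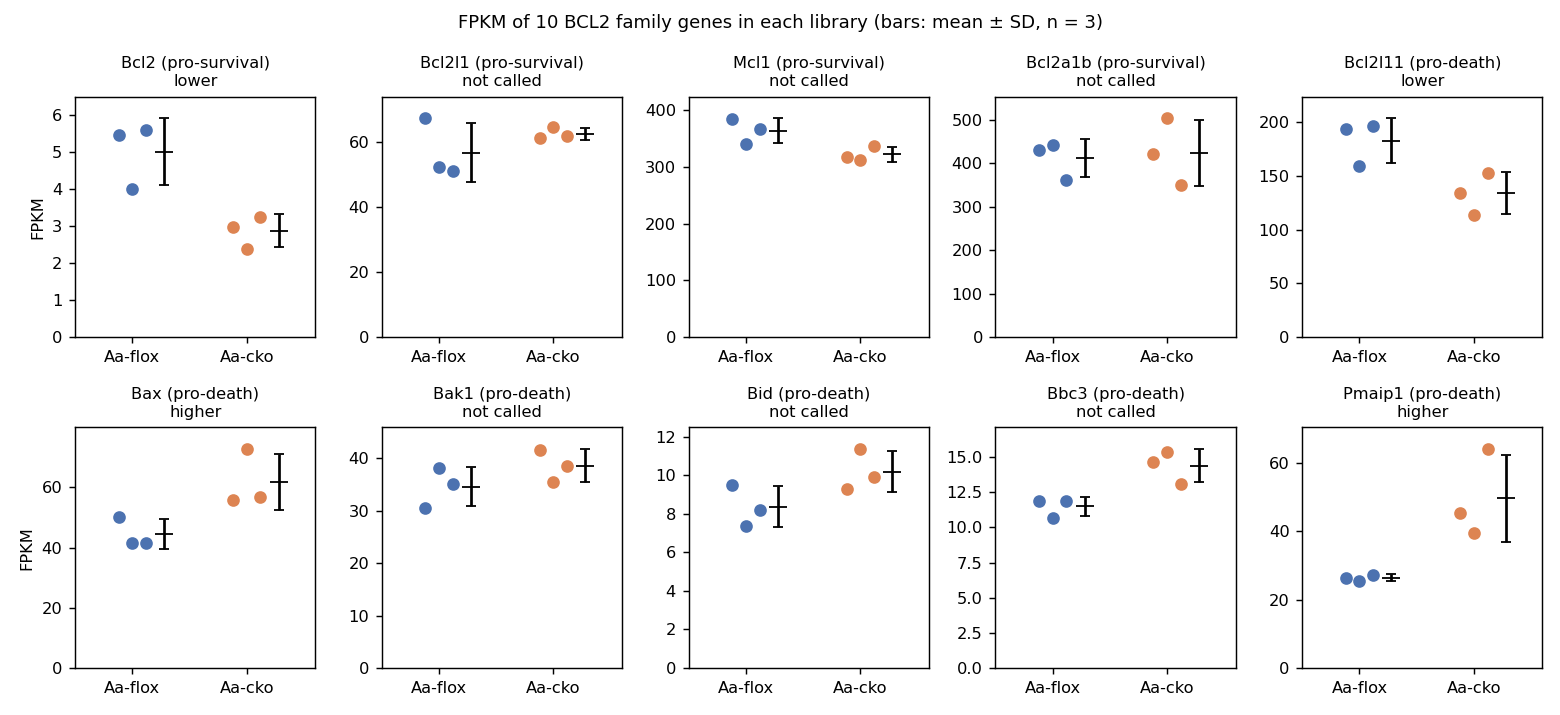
FPKM of the 10 genes in each library on axes that start at 0, with Aa-flox in blue, Aa-cko in orange and the mean ± SD (n = 3) as bars. The 3 Aa-cko libraries lie below all Aa-flox libraries for Bcl2, Bcl2l11 and Mcl1 and above them for Bax, Bbc3 and Pmaip1; of these, Mcl1 and Bbc3 did not pass the test (adjusted p = 0.189 and 0.0593).

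Bcl2 encodes BCL-2, the founding survival protein of the family, and lies at chr1:106538178-106714274 on the minus strand of mm10 (ENSMUSG00000057329). It read 5.46, 3.99 and 5.60 FPKM in Aa-flox replicates 1, 2 and 3 and 2.97, 2.38 and 3.25 FPKM in Aa-cko replicates 1, 2 and 3. Every Aa-cko library was below every Aa-flox library, and replicate 2 was the lowest of each group. The means were 5.01 ± 0.894 and 2.87 ± 0.446 FPKM (SD, n = 3 each), a ratio of 0.57, with a log2 fold change of -0.63 ± 0.16 (SE, 95% interval -0.98 to -0.28, adjusted p = 0.00972). It was the lowest of the 10 genes in both groups, and 23.5% of all tested genes had a lower mean FPKM. Its long transcript still placed an estimated 366 to 892 fragments in each library. The call held in the 12 alternatives that tested Bcl2, with adjusted p up to 0.0392, and a filter at a mean of 5 FPKM left Bcl2 untested.

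Mcl1 encodes MCL-1, a short-lived survival protein, and lies at chr3:95658788-95663176 on the plus strand (ENSMUSG00000038612). It read 384, 341 and 366 FPKM in Aa-flox and 317, 313 and 337 FPKM in Aa-cko, listed by replicate number. The groups did not overlap, but the distance between the lowest Aa-flox and the highest Aa-cko library was small. The log2 fold change of -0.17 ± 0.10 (95% interval -0.39 to 0.05) did not pass (adjusted p = 0.189). Bcl2l1, the gene of BCL-XL at chr2:152780668-152831728 (minus strand, ENSMUSG00000007659), read 67.3, 52.3 and 51.0 FPKM in Aa-flox and 61.3, 64.8 and 61.8 in Aa-cko. Its Aa-cko values lay inside the Aa-flox range, and the log2 fold change of 0.15 ± 0.12 did not pass (95% interval -0.12 to 0.41, adjusted p = 0.337).

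Bcl2a1b encodes A1, a survival protein of activated leukocytes, at chr9:89199209-89207827 on the plus strand (ENSMUSG00000089929). It read 431, 442 and 363 FPKM in Aa-flox and 421, 503 and 350 in Aa-cko, and the groups overlapped over most of their range. The log2 fold change was 0.03 ± 0.15 (95% interval -0.29 to 0.36, adjusted p = 0.870), and its sign turned when libraries were scaled to equal sums and when Aa-flox replicate 3 or Aa-cko replicate 2 was left out. The mouse genome holds several copies of this gene, and its coding sequence was 98.8% identical to that of Bcl2a1d and 97.9% to that of Bcl2a1a over 516 bases, so fragments cannot be assigned to a copy with certainty. Bcl2a1d read 161 to 212 FPKM in Aa-flox and 155 to 214 in Aa-cko (adjusted p = 0.968). Bcl2a1a read 84.2 to 105 and 99.1 to 148 FPKM (log2 0.35 ± 0.15, adjusted p = 0.0842), and passed without Aa-cko replicate 3 (0.0122), under upper quartile scaling (0.0441) and with the replicate block (0.00637). Summed over these 3 copies, FPKM was 714, 758 and 608 in Aa-flox and 729, 866 and 603 in Aa-cko. The sums overlapped between the groups. Bcl2a1c, 71.0% identical, was low in all libraries at 5.38 to 10.5 FPKM and did not pass (adjusted p = 0.425).

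Pmaip1 had the largest change of the 10 genes. It encodes NOXA, a BH3-only protein that binds chiefly MCL-1 and A1 and is a known target of p53 and of stress-induced transcription, and lies at chr18:66458533-66465565 on the plus strand (ENSMUSG00000024521). It read 26.4, 25.4 and 27.3 FPKM in Aa-flox and 45.3, 39.6 and 63.9 FPKM in Aa-cko. The Aa-flox libraries were close together and the Aa-cko libraries spread widely, with replicate 3 the highest, and all lay above Aa-flox. The means were 26.4 ± 0.946 and 49.6 ± 12.7 FPKM, a ratio of 1.88, and the log2 fold change was 0.86 ± 0.16 (95% interval 0.51 to 1.21, adjusted p = 0.00214), higher than that of 95.6% of all tested genes. The call held in all 13 alternatives, with log2 fold changes from 0.66 without Aa-cko replicate 3 to 1.0 without Aa-cko replicate 2.

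Bcl2l11 encodes BIM, the BH3-only protein that removes autoreactive and cytokine-deprived lymphocytes, and lies at chr2:128126038-128162547 on the plus strand (ENSMUSG00000027381). It read 194, 159 and 196 FPKM in Aa-flox and 134, 114 and 153 FPKM in Aa-cko. The groups did not overlap, but Aa-cko replicate 3 came near Aa-flox replicate 2, the lowest of its group. The means were 183 ± 20.6 and 134 ± 19.5 FPKM, with a log2 fold change of -0.46 ± 0.13 (95% interval -0.75 to -0.16, adjusted p = 0.0192). This call depended on single libraries, with adjusted p = 0.0682 without Aa-flox replicate 1, 0.0636 without Aa-flox replicate 3 and 0.0597 without Aa-cko replicate 1. Under upper quartile scaling it ended as well (log2 -0.32, adjusted p = 0.0648).

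Bax encodes the pore-forming effector BAX and lies at chr7:45461697-45466898 on the minus strand (ENSMUSG00000003873). It read 50.1, 41.5 and 41.7 FPKM in Aa-flox and 55.7, 72.6 and 56.9 FPKM in Aa-cko. Aa-cko replicate 2 stood highest and every Aa-cko library was above every Aa-flox library. The log2 fold change was 0.46 ± 0.13 (95% interval 0.17 to 0.75, adjusted p = 0.0165), from 44.4 ± 4.92 to 61.8 ± 9.43 FPKM. It did not pass without Aa-flox replicate 2 (adjusted p = 0.0645) or without Aa-flox replicate 3 (0.0540). Bak1, at chr17:27019810-27029009 on the minus strand (ENSMUSG00000057789), encodes BAK, the effector that acts in parallel with BAX. It read 30.5, 38.1 and 35.1 FPKM in Aa-flox and 41.7, 35.4 and 38.6 in Aa-cko, overlapped between the groups and did not pass (log2 0.16 ± 0.11, 95% interval -0.10 to 0.41, adjusted p = 0.290). Whether Bax and Bak1 changed to different extents was not tested, and the ratio of their FPKM overlapped between the groups, at 1.09 to 1.64 in Aa-flox and 1.34 to 2.05 in Aa-cko.

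Bbc3 encodes PUMA, a BH3-only protein induced by p53 and by growth factor withdrawal, at chr7:16308393-16318205 on the plus strand (ENSMUSG00000002083). It read 11.9, 10.7 and 11.9 FPKM in Aa-flox and 14.6, 15.4 and 13.1 in Aa-cko, without overlap. The log2 fold change of 0.30 ± 0.11 (95% interval 0.04 to 0.55) missed the threshold with adjusted p = 0.0593, and passed without Aa-cko replicate 3 (0.0409), under upper quartile scaling (0.0162) and with the replicate number as a block (0.0483). Bid, at chr6:120891930-120916853 on the minus strand (ENSMUSG00000004446), encodes the BH3-only protein that caspase-8 cleaves and so links death receptors to mitochondria. It read 9.52, 7.38 and 8.23 FPKM in Aa-flox and 9.30, 11.4 and 9.93 in Aa-cko, where Aa-cko replicate 1 fell inside the Aa-flox range. The log2 fold change of 0.26 ± 0.13 did not pass (95% interval -0.04 to 0.56, adjusted p = 0.147), except under upper quartile scaling (0.0494).

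**Figure D2:**
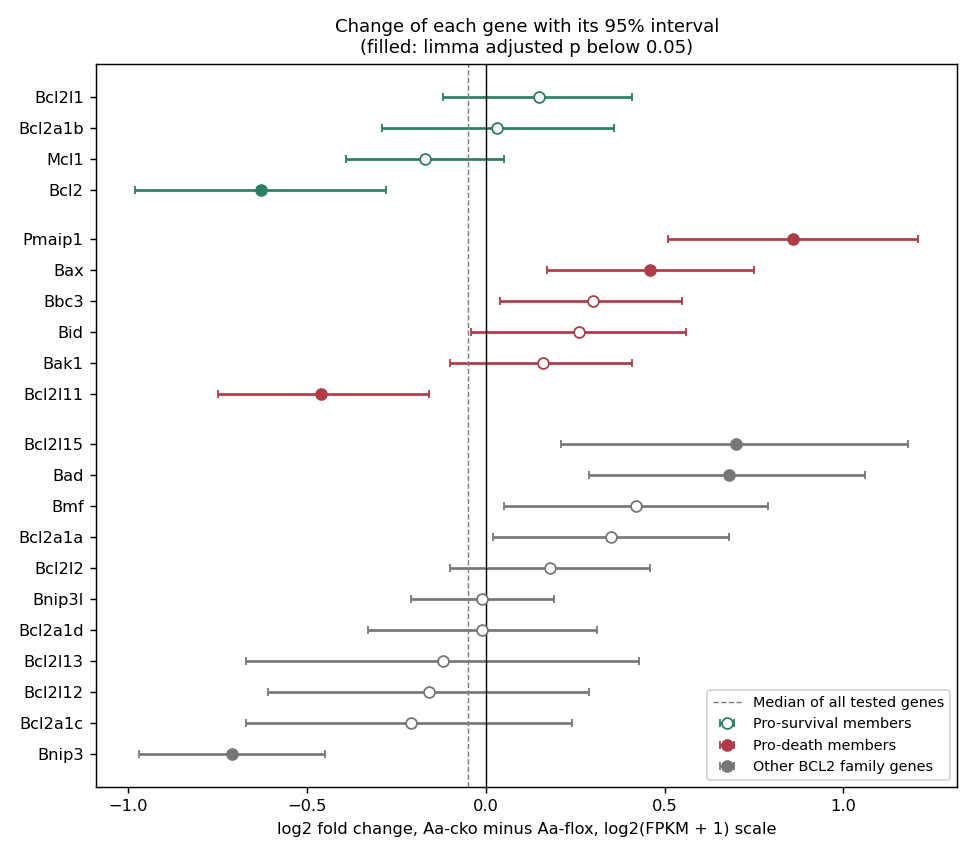
Log2 fold change of each gene, Aa-cko minus Aa-flox on the log2(FPKM + 1) scale, with its 95% interval; filled points passed the test and the dashed line is the median of all tested genes (-0.05). Pmaip1 (0.86) and Bax (0.46) lie to the right and Bcl2l11 (-0.46) to the left among the death genes, and Bcl2 (-0.63) is the only filled point among the survival genes.

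Ordered by mean FPKM, Bcl2a1b and Mcl1 stood at the top in both groups, followed by Bcl2l11 and Bcl2l1, and Bbc3, Bid and Bcl2 stood at the bottom in that order. Levels of Bcl2a1b and Mcl1 overlapped in Aa-flox and not in Aa-cko. In Aa-flox the sequence went on from Bcl2l1 to Bax, Bak1 and Pmaip1, with no overlap between neighbours. In Aa-cko Pmaip1 stood above Bak1 instead, and Bcl2l1, Bax, Pmaip1 and Bak1 each overlapped the next in the order.

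The summed FPKM of the death genes was nearly the same in both groups while its make-up differed. It was 322, 282 and 321 in Aa-flox and 301, 288 and 335 in Aa-cko, with means of 308 ± 22.4 and 308 ± 24.3 (SD, n = 3 each). Bcl2l11 held 60.1, 56.4 and 61.3% of that sum in Aa-flox and 44.6, 39.5 and 45.6% in Aa-cko. Pmaip1 held 8.21 to 8.99% in Aa-flox and 13.7 to 19.1% in Aa-cko, and Bax 13.0 to 15.6% and 17.0 to 25.2%. None of these shares overlapped between the groups, beside 53.3% of all tested genes without overlap when taken singly. The shares given are those of the called death genes, and shares of Bak1, Bid and Bbc3 were not formed. Being shares of 1 sum, those given are not independent of each other. The summed FPKM of the survival genes was 785 to 887 in Aa-flox and 752 to 883 in Aa-cko, and without Bcl2a1b 397 to 456 and 380 to 402. Both overlapped. These sums are of RNA, were formed after the values were seen and have no test.

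**Figure D3:**
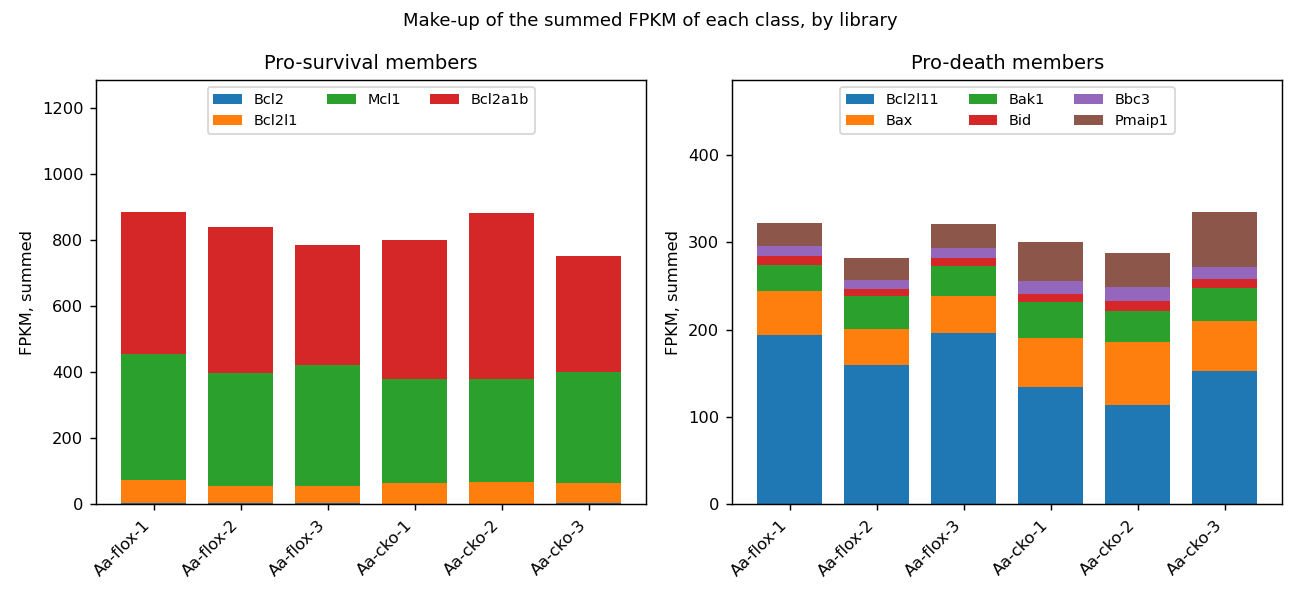
Summed FPKM of the 4 survival genes and of the 6 death genes in each library, stacked by gene from 0. The death totals stay between 282 and 335 FPKM while the Bcl2l11 part is 39.5 to 45.6% in Aa-cko and 56.4 to 61.3% in Aa-flox; Bcl2, at 2.38 to 5.60 FPKM, is too low to be seen in the survival stacks.

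Ratios between 2 genes of the same library do not change with the scaling of that library. The pairs given here join death proteins to survival proteins they bind, or 2 death genes to each other. They were chosen after the values were seen, so they are descriptions without a test. No ratio over Bcl2a1b, the survival gene with the highest mean FPKM in both groups, was formed, so the pairs do not cover all survival genes. Bcl2l11 was 35.5, 40.0 and 35.1 times Bcl2 in Aa-flox and 45.3, 47.8 and 46.9 times in Aa-cko. Against Mcl1 it stood at 0.504, 0.467 and 0.537 in Aa-flox and at 0.423, 0.364 and 0.453 in Aa-cko. Over Bcl2l1 it was 2.88, 3.05 and 3.85 in Aa-flox and 2.19, 1.75 and 2.47 in Aa-cko. The Bcl2l11 ratio was thus higher in Aa-cko over Bcl2 and lower over Mcl1 and Bcl2l1, without overlap in any of these cases. Pmaip1 over Mcl1 was 0.0689, 0.0745 and 0.0746 in Aa-flox and 0.143, 0.127 and 0.190 in Aa-cko. Bax over Bcl2 was 9.19, 10.4 and 7.44 in Aa-flox and 18.8, 30.5 and 17.5 in Aa-cko, and Bax over Bcl2l1 was 0.745 to 0.817 and 0.909 to 1.12. For these as well, every Aa-cko library was above every Aa-flox library. Among the death genes, Pmaip1 over Bcl2l11 was 0.137 to 0.159 in Aa-flox and 0.338 to 0.419 in Aa-cko. Bax over Bcl2l11 was 0.212 to 0.260 in Aa-flox and 0.373 to 0.639 in Aa-cko.

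**Figure D4:**
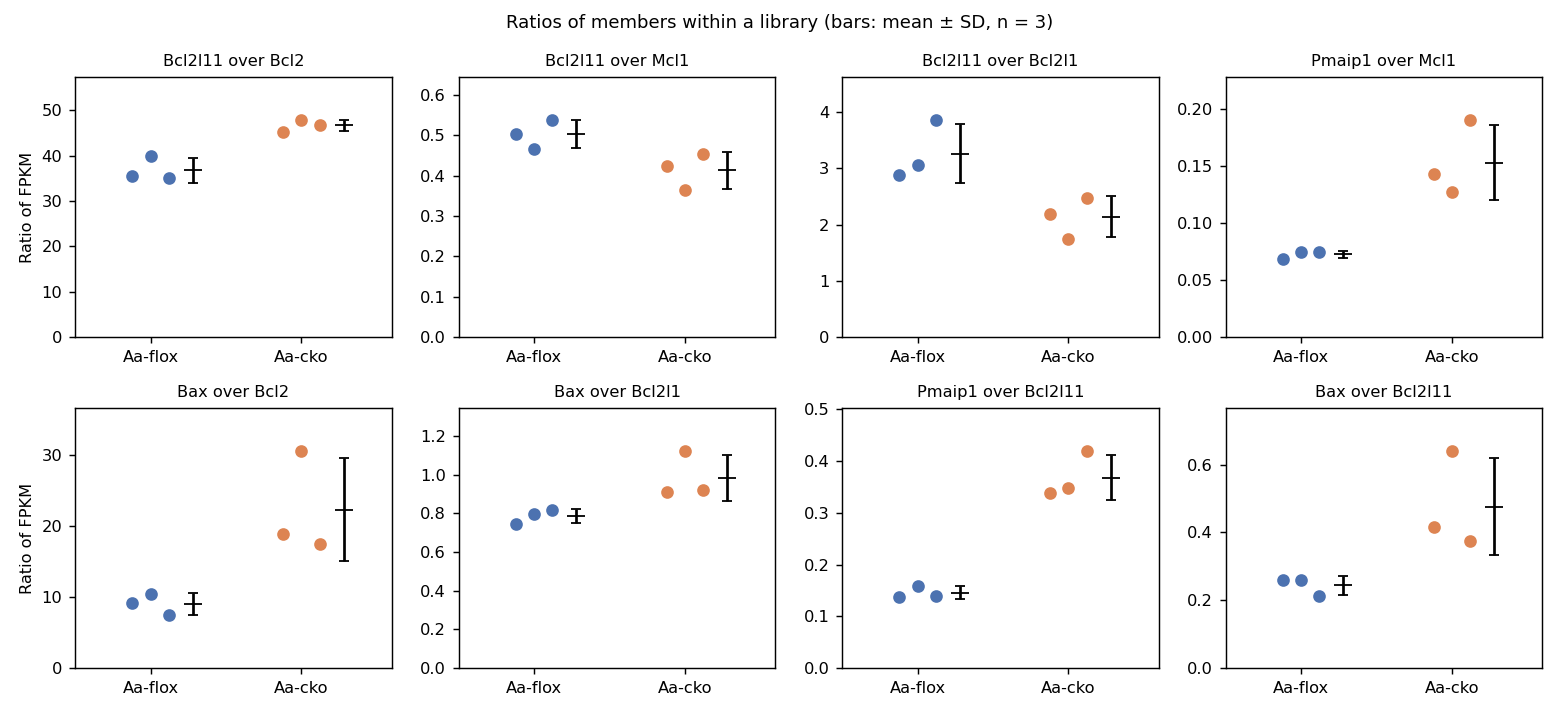
Ratios of FPKM between members within each library, with the mean ± SD (n = 3) as bars and axes from 0. The panels were chosen after the values were seen, each holds a called gene, and the groups are apart in all 8. For single genes, the groups did not overlap for 53.3% of all tested genes. Bax over Bak1, which overlapped, is not drawn, and no ratio over Bcl2a1b was formed. The ratios of Bcl2l11 over Mcl1 and over Bcl2l1 are lower in Aa-cko. The other ratios, among them Pmaip1 over Mcl1 (0.127 to 0.190 against 0.0689 to 0.0746), are higher.

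Marker RNA of several cell types differed between the groups as well, and in RNA of mixed cells fewer cells of a type and less RNA per cell cannot be told apart. The counts of markers given below stand beside 19.2% of all tested genes higher and 23.2% lower. Summed FPKM of 8 T cell markers was 1193 to 1423 in Aa-flox and 567 to 629 in Aa-cko, with 6 markers lower and 0 higher. For 8 macrophage and monocyte markers it was 714 to 881 and 2081 to 2637, with all 8 higher. Aa-cko replicate 2 was the highest Aa-cko library for these markers. It was also the highest for plasma cell, neutrophil, NK cell, erythroid, epithelial, fibroblast, immature lymphocyte, and eosinophil, mast cell and basophil markers. For group 2 innate lymphoid cell and endothelial markers it was the lowest. The same library was the highest of Aa-cko for 5 members (Bax, Bid, Bbc3, Bcl2l1 and Bcl2a1b) and the lowest for 5 (Bcl2, Mcl1, Bcl2l11, Bak1 and Pmaip1). The 6 B cell markers summed to 65.5 to 88.1 and 156 to 196 FPKM (6 higher), the 5 plasma cell markers to 206 to 222 and 290 to 327 (4 higher), the 6 neutrophil markers to 2688 to 3426 and 3462 to 5117 (4 higher), and the 5 erythroid markers to 18.6 to 21.8 and 42.3 to 69.7 (4 higher). Immature lymphocyte markers, 5 in number, summed to 154 to 155 and 102 to 109 FPKM with 3 lower. The 7 markers of group 2 innate lymphoid cells overlapped at 160 to 164 and 144 to 167 FPKM, with 4 higher and 2 lower. Sums of 6 NK cell markers overlapped at 233 to 275 and 270 to 305 FPKM (3 higher, 1 lower). Those of 7 eosinophil, mast cell and basophil markers overlapped at 16.6 to 19.3 and 17.7 to 27.2 FPKM (2 higher, 1 lower). As a check of the lung label, the 7 epithelial markers summed to 132 to 190 FPKM over all libraries, 5 endothelial markers to 32.4 to 37.2 FPKM in Aa-flox and 24.2 to 34.4 FPKM in Aa-cko, and 5 fibroblast markers to 26.2 to 31.7 and 24.7 to 29.6 FPKM. Of these, Cdh5 and Cldn5 of endothelium and Pdgfra of fibroblasts stayed under 1 FPKM in every library. The epithelial sum was below the T cell and neutrophil sums in every library. These values do not bear out the lung label, and which tissue or cells were sequenced was not tested. The part of these cell types in the values of the BCL2 family genes was not tested.

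The other BCL2 family genes were mostly low or did not pass. Of 16, 5 stayed under 1 FPKM in every library (Bcl2l10, Bcl2l14, Bok, Bik and Hrk), and of the 11 tested 2 were higher, 1 was lower and 8 did not pass, with a median log2 fold change of -0.01, beside 42.4% of all tested genes called. Bad, a BH3-only gene whose protein is held inactive by phosphorylation, read 6.03, 5.16 and 5.05 FPKM in Aa-flox and 8.71, 12.1 and 7.37 in Aa-cko (log2 0.68 ± 0.17, adjusted p = 0.0107). Bnip3, whose protein marks mitochondria for autophagy, read 14.9, 13.9 and 15.1 FPKM in Aa-flox and 9.08, 8.90 and 7.73 in Aa-cko (log2 -0.71 ± 0.12, adjusted p = 0.00115). Neither gene overlapped between the groups. Bcl2l15 was higher (log2 0.70 ± 0.22, adjusted p = 0.0272) but read only 0.746 to 3.24 FPKM, and did not pass without Aa-flox replicates 2 or 3 or Aa-cko replicate 1 (adjusted p = 0.0752, 0.0875 and 0.0908). Bmf, a BH3-only gene of lymphocytes, did not pass (log2 0.42 ± 0.17, adjusted p = 0.0669), and passed without Aa-flox replicate 3 (0.0169), under upper quartile scaling (0.0256) and with the replicate block (0.0334).

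In the caspase pathway, Casp2, the gene of an initiator caspase, was lower in Aa-cko (9.37 ± 1.44 FPKM) than in Aa-flox (18.6 ± 3.69; log2 -0.91 ± 0.16, adjusted p = 0.00186), and Htra2, a mitochondrial protease that relieves caspase inhibition, rose from 6.23 ± 0.902 to 11.0 ± 0.764 (log2 0.74 ± 0.13). Of the 13 genes of the apoptosome and caspase list 1 was higher, 2 were lower and 10 did not pass (median -0.10), beside 19.2% of all tested genes higher and 23.2% lower, and the call of the other lower gene, Diablo, whose protein relieves caspase inhibition, ended without Aa-flox replicate 3 (adjusted p = 0.0777) or Aa-cko replicate 1 (0.0828). Among 7 inhibitors of apoptosis, Birc5, the mitotic survivin gene, fell (log2 -0.56 ± 0.10, adjusted p = 0.00179), and Naip2 and Naip5, which in mice are known chiefly as sensors of bacterial proteins, were higher at log2 0.74 ± 0.13 and 0.49. Naip5 did not pass without Aa-flox replicate 3 (0.0540) or Aa-cko replicate 1 (0.0531). The death receptor list of 10 had 2 higher, Fas and Tradd, and 1 lower, Tnfsf10, which encodes TRAIL, beside 42.4% of all tested genes called. All 3 of these calls ended when single libraries were left out, with adjusted p up to 0.0991, 0.141 and 0.143.

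Among the regulators of these genes listed here, more were called lower than higher. The lists were chosen with earlier results of these data known, so these counts are a description and not a test. Of 14 tested transcriptional regulators 8 were lower, 2 were higher and 4 did not pass, with a median log2 fold change of -0.48, beside 23.2% of all tested genes lower. Foxo1, whose protein activates Bcl2l11 and Bbc3 in lymphocytes, read 61.4, 51.2 and 64.2 FPKM in Aa-flox and 16.1, 12.8 and 19.9 in Aa-cko (log2 -1.81 ± 0.16, adjusted p = 5.41e-05). Trp53, the p53 gene, whose protein activates Bax, Bbc3 and Pmaip1, fell from 111 ± 7.27 to 43.5 ± 1.53 FPKM (log2 -1.33 ± 0.09, adjusted p = 1.85e-05). The part of either gene in the values of the BCL2 family genes was not tested. Nfkb1 and Rela, NF-kappaB subunits that act on Bcl2a1 and Bcl2l1, fell (log2 -1.14 ± 0.12 and -0.58 ± 0.10), as did Stat5a and Stat5b, which relay survival cytokines. E2f1 and Rel were also lower and Ddit3 and Runx3 higher, with calls that ended in some alternatives (highest adjusted p 0.0931, 0.106, 0.124 and 0.0592). Of 9 genes listed here under turnover or binding of BCL2 family proteins 4 were lower and 0 higher, beside 23.2% of all tested genes lower. The list does not show that each acts directly on these proteins. The 4 were Trib3 (log2 -1.03 ± 0.13), Fbxw7, a ubiquitin ligase subunit for MCL-1 (-0.59 ± 0.15), and Usp9x and Ywhaq, whose calls ended in some alternatives (highest adjusted p 0.101 and 0.132). Over these 6 lists, 64 genes were tested, 9 were higher and 17 lower, a share near the 42.4% called among all tested genes, and 14 of the 26 calls held in every alternative. Without Aa-cko replicate 1 there were 14 calls, and with upper quartile scaling 14 were higher and 11 lower.

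Promoters are shown for the members that passed, except Pmaip1, as windows of 300 bases that begin upstream and end shortly after the annotated start, 5′ to 3′ on the strand of the gene. They come from a RefSeq set of promoters on GRCm38.p6, from which windows were taken only for the members other than Pmaip1. Capitals mark matches on either strand to the FOXO motif GTAAACA, the E-box CACGTG, the GC box GGGCGG, the cyclic AMP element TGACGTCA and the p53 half-site. The shares of all 32851 promoters in that set that hold a match are 3.65% for FOXO, 7.15% for the E-box, 35.7% for the GC box, 1.79% for the cyclic AMP element and 8.36% for the p53 half-site.
Bcl2: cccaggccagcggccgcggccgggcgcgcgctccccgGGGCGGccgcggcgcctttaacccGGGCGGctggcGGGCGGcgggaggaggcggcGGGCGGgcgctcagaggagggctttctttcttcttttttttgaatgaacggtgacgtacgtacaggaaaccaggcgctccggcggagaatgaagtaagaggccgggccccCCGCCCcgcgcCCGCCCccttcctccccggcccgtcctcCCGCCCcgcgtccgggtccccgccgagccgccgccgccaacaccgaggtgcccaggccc
Bcl2l11: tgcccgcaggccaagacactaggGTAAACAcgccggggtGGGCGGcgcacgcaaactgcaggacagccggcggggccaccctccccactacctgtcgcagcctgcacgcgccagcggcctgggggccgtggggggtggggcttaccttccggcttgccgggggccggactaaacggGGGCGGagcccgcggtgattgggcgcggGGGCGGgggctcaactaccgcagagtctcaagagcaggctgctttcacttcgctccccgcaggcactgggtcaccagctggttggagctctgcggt
Bax: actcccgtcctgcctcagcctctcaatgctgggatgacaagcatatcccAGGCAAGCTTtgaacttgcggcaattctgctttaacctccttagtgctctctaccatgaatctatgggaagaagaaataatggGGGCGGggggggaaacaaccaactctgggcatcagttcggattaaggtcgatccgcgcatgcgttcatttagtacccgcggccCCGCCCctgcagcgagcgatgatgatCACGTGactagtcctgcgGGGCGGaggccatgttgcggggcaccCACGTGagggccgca
The Bcl2 window (chr1:106714241-106714540, minus strand) held 7 GC boxes and no other match, in 76.0% G and C. The first of the Bcl2l11 windows (chr2:128125788-128126087, plus strand) held 1 FOXO match and 3 GC boxes, and the other (chr2:128127325-128127624) held 3 GC boxes. The Bax window (chr7:45466849-45467148, minus strand) held 2 E-boxes, 3 GC boxes and 1 p53 half-site. These are matches of letters and not measured sites.

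For the strongest rise and fall, the genes with the most similar pattern over the 6 libraries were sought by the Euclidean distance between log2(FPKM + 1) profiles centred on their mean. Nearest to Pmaip1 were Hs1bp3, Klhl21 and Tent5c, at distances of 0.164, 0.189 and 0.191. Hs1bp3 was low, at 1.02 to 1.38 FPKM in Aa-flox and 2.30 to 4.43 in Aa-cko. Tent5c, which encodes a poly(A) polymerase, read 17.4 to 19.9 FPKM in Aa-flox and 29.7 to 41.2 in Aa-cko, with Aa-cko replicate 3 the highest as for Pmaip1. Nearest to Bcl2 were Sh3bp2, Slc37a3 and Kdm2b, at 0.110, 0.110 and 0.129. Sh3bp2, an adaptor of immune receptor signalling, read 31.2 to 38.8 FPKM in Aa-flox and 20.3 to 24.5 in Aa-cko, with replicate 2 the lowest of each group as for Bcl2. All of these genes were picked for their likeness, so the shared order of libraries follows from the choice.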

How the data were processed

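The 6 libraries were available as 1 deposited table of FPKM per gene, computed by the authors, for 21965 genes, with 3 decimals. Per the labels' protocols, total RNA was used with a SMARTer mRNA-Seq kit, and per the submitters' processing notes the build was mm10; for the aligner, quantifier, annotation and use of strand, nothing is given in the sources used here. Columns were matched to libraries by name. Positions and exon lengths came from GENCODE M21 on the same assembly (21806 identifiers matched). Column sums ran from 513648 to 607447 FPKM. Depth, read from the spacing of low FPKM, was 14.1 to 17.4 M fragments, but only 45.2 to 47.5% of held-out values were whole within 0.1 fragment (20.0% by chance), so fragment numbers are estimates and no count test was run.

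Groups were compared with limma 3.58.1 in R 4.3.3 (intensity trend, robust moderation, two-sided, group as only term) on log2(FPKM + 1) for the 10849 genes that reached 1 FPKM in 3 or more libraries, which understates changes of low genes. The same steps were tested on simulated data. Tables used Python 3.11.15 and pandas 2.3.3, plots matplotlib 3.10.9. Alternatives changed the pseudocount, filter, scaling, variance model, block and libraries. All 10 members are named, with at most 4 values from each other list. The members and lists were chosen with earlier results of these data known, and 1 gene of a list is not reported here. Of 2 identifiers sharing the symbol Ddit3, the longer locus was used.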

Additional observations from a re-analysis of the deposited data

How the results depend on the processing

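Across 13 alternatives, Bcl2 (where tested) and Pmaip1 kept their calls, and no called member changed sign. The count of all genes called was 3238 to 4756 without single libraries and 5509 with the replicate number as a block. Upper quartile scaling moved the median log2 fold change of all tested genes from -0.05 to 0.07, and the split of calls from 2087 higher and 2515 lower to 2708 and 1735 (1578 and 2802 scaled to equal sums). Under it the death genes had 4 calls, all higher. With a filter at a mean of 5 FPKM 0 of 3 tested survival genes passed, since Bcl2 was then not tested. Leaving out single libraries gave 1 to 4 calls among the death genes, 1 without Aa-flox replicate 3, and 14 to 32 among the other pathway genes, 14 without Aa-cko replicate 1. Sign changes were seen for Bcl2a1b (-0.0614 scaled to equal sums, and -0.0969 to 0.165 without single libraries, below 0 without Aa-flox replicate 3 or Aa-cko replicate 2), Bcl2a1c (-0.377 to 0.0470 without single libraries, above 0 without Aa-cko replicate 3) and Bcl2a1d (0.128 with upper quartile scaling, and -0.113 to 0.121 without single libraries), none of which passed, and the cause was not tested. Deviations of same-numbered libraries correlated at -0.0179, 0.188 and 0.522, and not every library correlated best with its own number, so the numbers were not taken as pairs. The replicate block gave 4 calls among the death genes (Bbc3 added, adjusted p = 0.0483), 1 among the survival genes and 35 among the other pathway genes, where Bcl2a1a (0.00637) and Bmf (0.0334) passed. Bcl2 and Bbc3 had the fewest fragments of the members, at an estimated 366 and 380 in the lowest library, and whether depth limits their results was not tested.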
